A study of Mus musculus with 18 samples.

Results

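Organic ion and drug transporters were taken here as the genes whose symbols begin with Slco, Slc22a or Abcc followed by a digit. The array held 62 probes for 45 of these genes, out of 41174 probes in all, of which 23374 were matched to one of 16535 gene symbols. A probe became a member by its gene symbol and not by its own measured value. The families themselves were chosen with earlier results of these data known. The annotation lists 51 genes of these names, and Slco1b2, Slco6b1, Slco6d1, Slc22a13b, Slc22a15 and Slc22a27 were not matched to a probe.

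Transporters of these families move bile acids, conjugated hormones, drugs and other charged molecules through the membranes of hepatocytes. Slco carriers (organic anion transporting polypeptides) and most Slc22a carriers (organic cation, organic anion and carnitine transporters) take their substrates up from the blood, and several Slco proteins also carry thyroid hormones. Abcc proteins use ATP, and in the liver the multidrug resistance proteins among them export conjugates either into bile or back into the blood, while the sulfonylurea receptors of the same family are subunits of potassium channels.

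Liver RNA was from male C57BL/6 pups at PND 15, with 1 pup per array and 5 arrays in each of 2 groups. Dams of the hypothyroid pups drank sugar water with 0.05% methimazole (MMI) and 1% perchlorate from PND 12, agents that block the synthesis of thyroid hormone and the uptake of iodide, and dams of the control pups drank sugar water alone. By the study's methods 1 male pup was taken from a litter, the pups of both groups were injected with PBS hours before they were killed, and only RNA of high integrity was hybridized. Each liver RNA was hybridized against universal mouse reference RNA, a commercial pool of RNA from mouse cell lines, and all values below are log2 ratios of liver over reference or differences between such ratios. Whole liver was measured, so fewer cells of a type and less RNA per cell cannot be told apart.

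The arrays lay on 6 slides, of which 4 carried 1 array of each group, and from 75.9% to 85.4% of probes were above the background limit on an array. The labels and the methods give liver as Cy5 on every array. With the dyes as labelled, control 832 and hypothyroid 576, which share slide 141, had correlations across all probes of -0.97 and -0.98 with the remaining slides, so their channels were exchanged here, and signs on that slide are opposite to those that the labels would give. Control 616 also stood apart. Its correlation with the other slides was 0.881 against 0.972 to 0.987 for the rest, and the SD of its log2 ratios was 0.733, against 1.01 or more on the rest. The hepatocyte markers (8 genes, among them Alb, Ttr and Apoa1) had a mean log2 ratio of 2.53 on control 616, from 3.90 to 4.48 on the other controls and from 4.04 to 4.63 on the hypothyroid arrays. The difference between the groups in that mean was 0.58, and 0.25 without control 616.

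Transporter ratios were drawn toward 0 on control 616. Of 16 transporter probes whose mean log2 ratio on the other controls was above 1, 15 were lower on control 616, with a median difference of -0.79. Of 7 probes below -1, all 7 were higher there, with a median difference of 1.28. Leaving this array out turned the direction of the group difference for 7 of 48 probes tested, and values without it are therefore given beside many of the results that it moved.

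**Figure D1:**
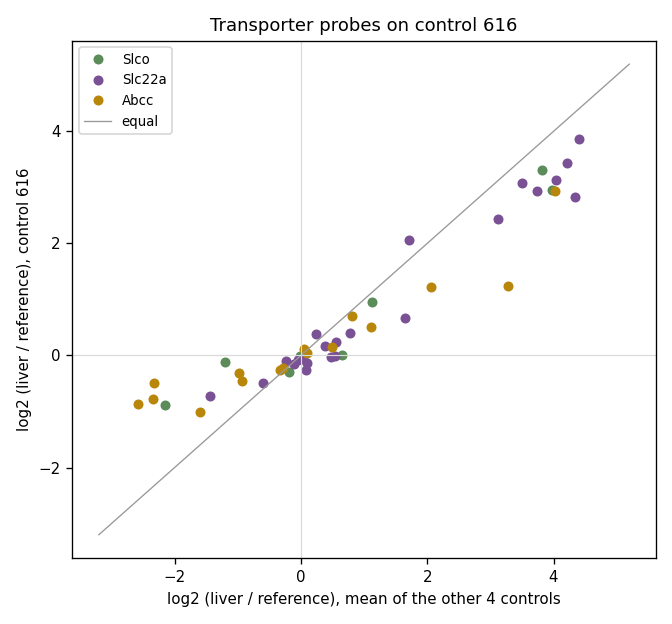
Log2 ratio of liver over reference RNA of each transporter probe on control 616 (vertical) against the mean of the other 4 control arrays (horizontal), for the 47 tested probes with a value on every array. Points at both ends of the horizontal axis lie nearer to 0 than the line of equal values: 15 of 16 probes with a ratio above 1 are lower on control 616 and all 7 probes with a ratio below -1 are higher.

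Of the 62 probes, 48 for 35 genes were above the background limit in enough arrays to be tested, that is, in either group on all arrays or all but 1. The remaining 10 genes had no tested probe. These were Slco1a1, Slco1a6, Slco4c1, Slco5a1, Slco6c1, Slc22a3, Slc22a14, Slc22a22, Abcc10 and Abcc12. Slco1a1, an organic anion carrier known from adult mouse liver, was not well above background on any array, and its signal passed the background limit on 0 control and 2 hypothyroid arrays. Slco1a6, Slco4c1, Slco5a1 and Slco6c1 passed the limit on 0 of 10 arrays. The other untested probes were further probes of Abcc8 and Slc22a8. In the control livers, 24 of the 48 tested probes were above the reference pool on every array, 15 were below it on every array, and 9 were mixed.

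The comparison asked which transporter transcripts differed between hypothyroid and control liver after this brief exposure. No transporter probe had an adjusted p below 0.05 by limma (0 of 48), against 2 of 32056 probes tested in all (0.00624%). The Fs test, rebuilt after the study's methods, also gave 0 transporter probes, and 2 probes in all. The paper reported more altered transcripts from its own Fs test than either count over all probes, and why was not tested. At an unadjusted p below 0.05, limma gave 5 of 48 transporter probes, against 7.42% of all probes. The Fs test, which needed a value on every array, gave 5 of 47, against 2766 of 31634 probes in all. In the limma fit these 5 were Abcc3 and Slc22a18, with higher means in hypothyroid liver (3.34% of all probes), and Slc22a29, Abcc8 and Slc22a21, with lower means (4.08% of all probes). Abcc3 was the 1 transporter probe whose 2 groups did not overlap, against 2.06% of all probes. As shares of the transporter probes these counts are 10.4% and 2.08%, near the shares over all probes. Without control 616 the count at an unadjusted p below 0.05 was 4 (7.36% over all probes) and the count of groups that did not overlap was 1 (2.9% over all probes). Without slide 141 these counts were 5 and 3, with shares of 7.45% and 5.46% over all probes, and with the dyes of that slide as labelled both were 0.

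Most transporters differed little between the groups. The difference between group means was under 0.2 on the log2 scale, in either direction, for 30 of 48 probes. It was positive for 28 and negative for 20, with a median of 0.05 against -0.01 over all probes tested. The median over transporters was -0.01 without control 616. By family the median was -0.01 for the 8 Slco probes, 0.05 for the 24 Slc22a probes and 0.06 for the 16 Abcc probes.

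**Figure D2:**
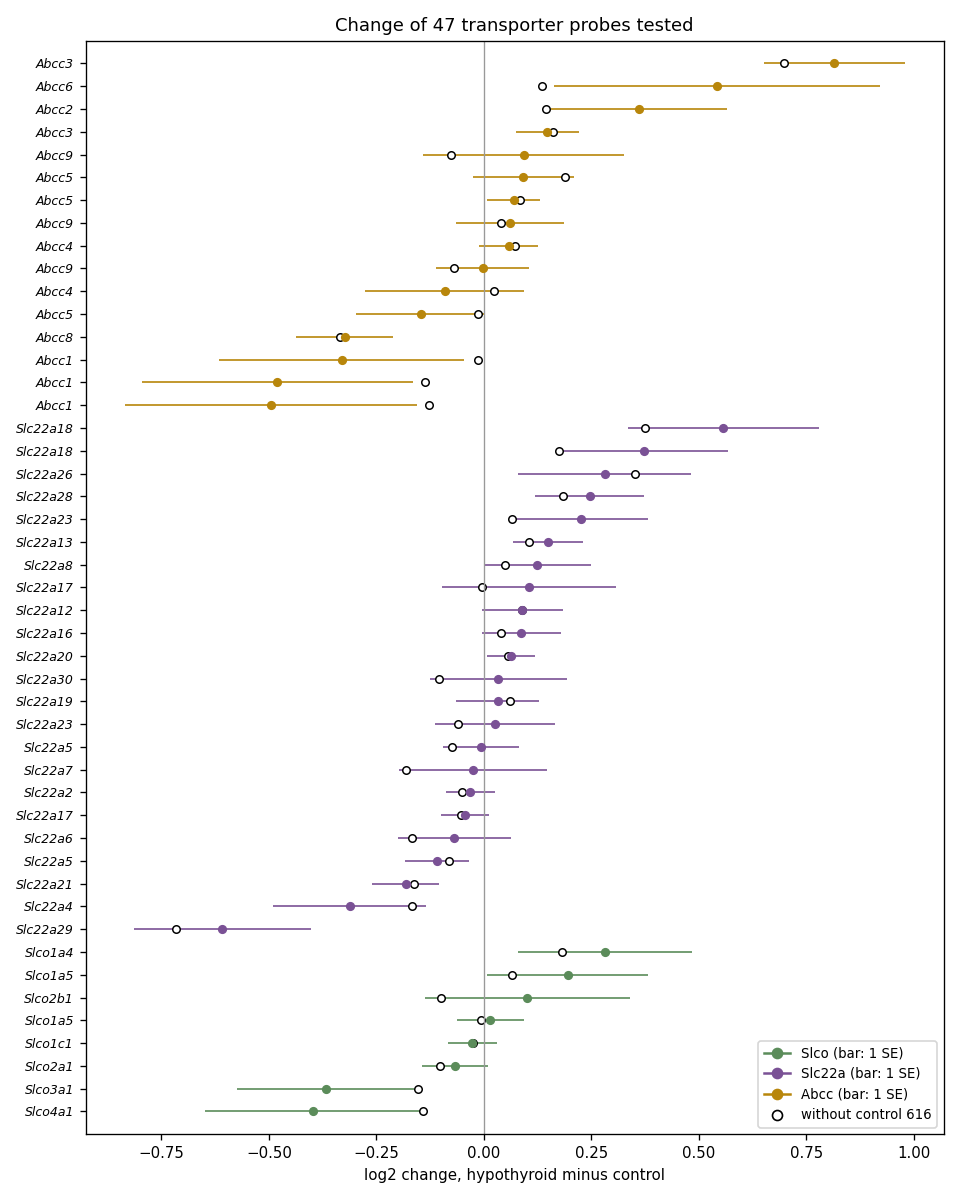
Difference in mean log2 ratio between hypothyroid and control arrays for 47 of the 48 transporter probes tested, with bars of 1 SE from the limma fit and genes with several probes on several lines. Open circles give the same difference without control 616. Differences run from -0.61 (Slc22a29) to 0.81 (Abcc3), and most lie within 0.2 of 0, while open and filled circles lie far apart for Abcc6 and Abcc1.

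Abcc3 (Mrp3) exports bile acids and glucuronide conjugates across the sinusoidal membrane into blood. Its log2 ratio was 1.03, 0.95, 1.17, 0.52 and 1.26 on control arrays 881, 832, 522, 616 and 391. On hypothyroid arrays 891, 576, 311, 723 and 626 it was 1.54, 1.95, 2.15, 1.46 and 1.90. Each hypothyroid array was above each control array, with the smallest gap between hypothyroid 723 and control 391. The difference was 0.81 with an SE of 0.16 (95% interval 0.45 to 1.18), a mean ratio 1.76-fold as high in hypothyroid liver, with an unadjusted p of 0.000432 and an adjusted p of 0.188 by limma. On the 4 slides that carried both groups, the hypothyroid array was higher by 1.39, 0.98, 0.51 and 1.00 on slides 100, 136, 139 and 141. Without control 616 the difference was 0.70, with an adjusted p of 0.101 by limma. Over all alternatives in the processing the adjusted p ran from 0.0958 to 1.00 and the difference from 0.42 to 1.04, so that no setting brought Abcc3 past the threshold and none turned its direction. The lowest value was that with the dyes of slide 141 as labelled. A second and much dimmer Abcc3 probe gave 0.15 with an SE of 0.07, and it did not separate the groups.

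**Figure D3:**
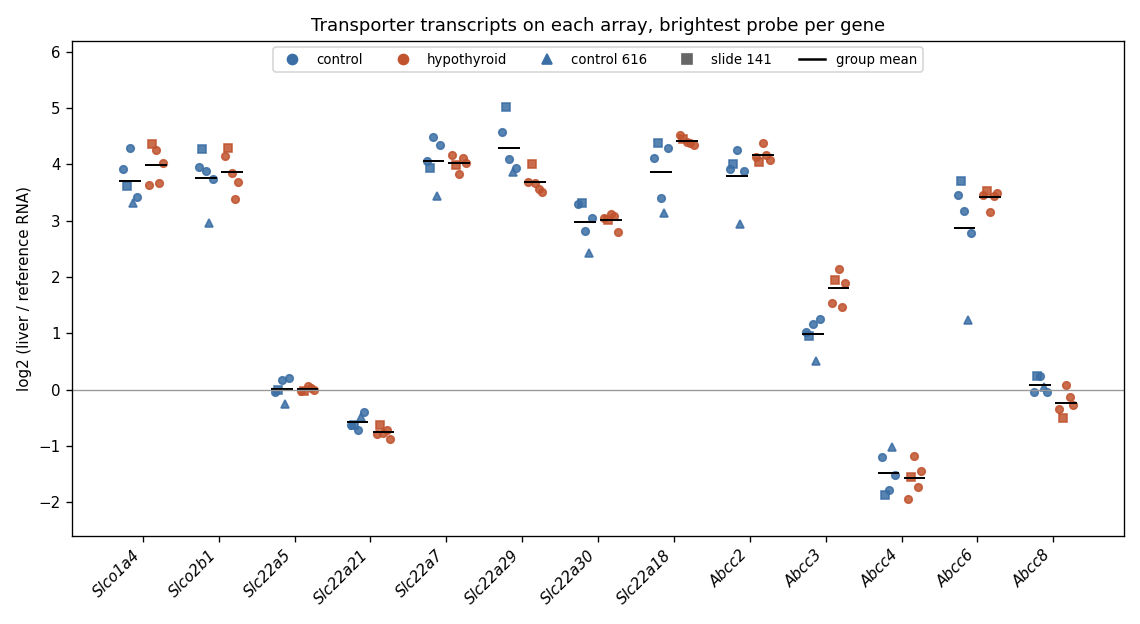
Log2 ratio of liver over reference RNA on each array for 13 transporter genes, 5 control and 5 hypothyroid arrays each, with the brightest probe of a gene shown and the group mean as a bar. Triangles mark control 616 and squares the arrays of slide 141. All 5 hypothyroid points of Abcc3 lie above its control points, 4 of 5 hypothyroid points of Slc22a29 lie below its control points, and control 616 is the lowest array for Abcc2 and Abcc6. Heights are not comparable between genes, since each is read by another probe.

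The other multidrug resistance proteins of hepatocytes did not share this separation. Abcc2 (Mrp2), the pump for conjugated bilirubin and other conjugates in the bile canalicular membrane, had log2 ratios of 3.91, 4.01, 4.25, 2.94 and 3.88 on control arrays 881, 832, 522, 616 and 391, and of 4.12, 4.05, 4.39, 4.17 and 4.08 on hypothyroid arrays 891, 576, 311, 723 and 626. The control values other than that of array 616 spanned most of the hypothyroid range, and the difference of 0.36 (SE 0.21, unadjusted p 0.107 by limma) was 0.15 without that array. Within slides 100, 136, 139 and 141 the hypothyroid array was higher by 1.14, 0.13, 0.21 and 0.03, with control 616 on slide 100.

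Abcc4 (Mrp4), a basolateral exporter of bile acids and cyclic nucleotides, was below the reference pool throughout, at -1.20, -1.87, -1.78, -1.02 and -1.52 on the control arrays and -1.95, -1.55, -1.17, -1.73 and -1.44 on the hypothyroid arrays, in the same order. The groups overlapped over nearly their whole range. The difference was -0.09 with an SE of 0.19, and its sign turned without control 616, with processed signals and with median centring of the arrays. A second and dimmer Abcc4 probe gave 0.06 with an SE of 0.07.

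Abcc6, a hepatocyte protein needed for the release of ATP and with it of the mineralization inhibitor pyrophosphate, was at 3.46, 3.70, 3.18, 1.24 and 2.78 on the control arrays and at 3.46, 3.53, 3.15, 3.44 and 3.49 on the hypothyroid arrays. Control 616 lay far below all other arrays. The difference was 0.54 with an SE of 0.38, and 0.14 without that array. Within slides 136, 139 and 141 it was -0.03, 0.00 and -0.17.

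Abcc8 (Sur1) is the sulfonylurea receptor of the potassium channel of pancreatic beta cells, and not a known drug pump of hepatocytes. Its ratio was -0.04, 0.24, 0.25, 0.05 and -0.04 on the control arrays and -0.34, -0.51, 0.09, -0.13 and -0.27 on the hypothyroid arrays. In all, 4 of 5 hypothyroid arrays lay below every control, and hypothyroid 311 lay within the control range. The difference was -0.32 with an SE of 0.11 (unadjusted p 0.0154, adjusted p 0.572 by limma), and the hypothyroid array was the lower on all 4 shared slides, with differences of -0.32, -0.16, -0.30 and -0.75. Without slide 141 the difference was -0.22, with an unadjusted p of 0.0839. With the dyes of that slide as labelled it was -0.02, and with median centring -0.16.

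Transcripts of another pancreatic cell type varied over the same arrays. The mean log2 ratio of 11 tested exocrine pancreas genes was 4.06, 4.24 and 2.47 on control arrays 832, 522 and 616, 0.96 and 0.95 on control arrays 881 and 391, and from 0.83 to 0.97 on the hypothyroid arrays. Of these genes 9 had a lower mean in the hypothyroid group at an unadjusted p below 0.05 by limma, against 4.08% of all probes, and 0 had an adjusted p below 0.05. Control arrays 832 and 522, the highest of the 10 for these genes, were also the highest for Abcc8. Control arrays 881 and 391, with marker means within the range of the hypothyroid arrays, had Abcc8 ratios of -0.04 each, above 4 of 5 hypothyroid arrays. The part of pancreatic RNA in the Abcc8 difference was not tested.

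**Figure D4:**
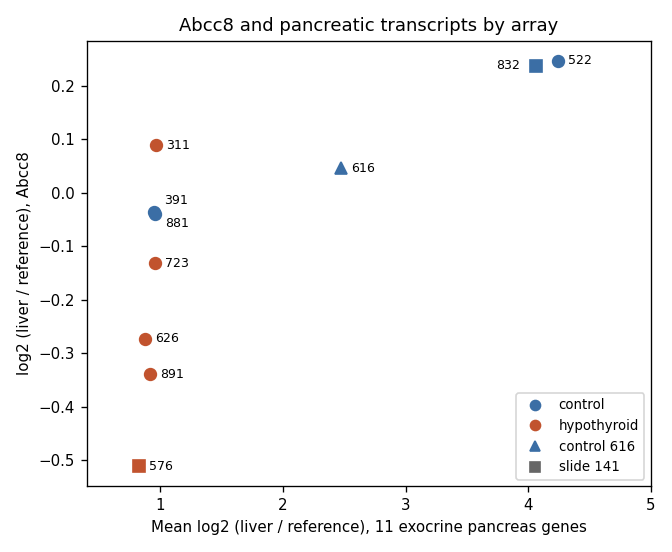
Log2 ratio of Abcc8 on each array (vertical) against the mean log2 ratio of 11 exocrine pancreas genes on the same array (horizontal), with arrays named by their animal number. Control arrays 832 and 522 lie at the upper right, while the 5 hypothyroid arrays and control arrays 881 and 391 lie between 0.83 and 0.97 on the horizontal axis and spread from -0.51 to 0.09 in Abcc8.

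Of the remaining Abcc genes, Abcc1 (Mrp1), Abcc5 (Mrp5) and Abcc9 (Sur2) had 3 tested probes each. The 3 Abcc1 probes were below the reference pool on every array, with differences of -0.33, -0.48 and -0.50 that were -0.01, -0.14 and -0.13 without control 616. The Abcc5 probes gave 0.09, -0.15 and 0.07 and the Abcc9 probes 0.09, 0.06 and -0.00. None of these 9 probes had an unadjusted p below 0.05 by limma.

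Among the organic cation and carnitine carriers, Slc22a5 (Octn2), the main carnitine carrier, was close to the reference pool, at -0.04, -0.01, 0.17, -0.26 and 0.21 in controls and -0.03, -0.02, 0.06, 0.03 and -0.01 in hypothyroid pups. The difference was -0.01 with a 95% interval of -0.20 to 0.19. A second probe gave -0.11 with an SE of 0.07. Slc22a4 (Octn1) was below the reference, with a difference of -0.31 (SE 0.18), and -0.17 without control 616.

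Slc22a21 (Octn3), a related carnitine carrier of the mouse, was at -0.63, -0.63, -0.72, -0.49 and -0.40 in controls and at -0.79, -0.63, -0.76, -0.71 and -0.89 in hypothyroid pups. Of the 5 hypothyroid arrays, 3 lay below every control. The difference was -0.18 with an SE of 0.08 (unadjusted p 0.0402, adjusted p 0.657 by limma). Without control 616 it was -0.16, with an unadjusted p of 0.0736. It was -0.39, -0.04, -0.17 and 0.01 within slides 100, 136, 139 and 141, and -0.00 with median centring.

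Slc22a18, a member of the family in an imprinted region and less well known as a carrier, was at 4.11, 4.38, 3.40, 3.14 and 4.29 on control arrays 881, 832, 522, 616 and 391 and at 4.53, 4.46, 4.40, 4.37 and 4.35 on the hypothyroid arrays. The hypothyroid arrays lay close together, whereas the controls were spread widely, with arrays 522 and 616 the lowest. The difference was 0.56 with an SE of 0.22 (unadjusted p 0.0287, adjusted p 0.631 by limma), a mean ratio 1.47-fold as high. It was 0.38 without control 616, where the unadjusted p was 0.0426, and 1.21, 1.00, 0.41 and 0.08 within slides 100, 136, 139 and 141. The second Slc22a18 probe gave 0.37 (SE 0.20), and 0.17 without control 616. The difference of that probe was negative on 2 of the 4 slides, at -0.08 and -0.10.

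Slc22a7 (Oat2), an organic anion carrier of liver, was at 4.06, 3.94, 4.49, 3.43 and 4.34 in controls and 4.17, 3.99, 3.83, 4.12 and 4.03 in hypothyroid pups. The groups overlapped, and the difference of -0.03 (SE 0.17) turned its sign under several settings.

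Slc22a29 belongs, with Slc22a19, Slc22a26, Slc22a28 and Slc22a30, to a rodent group of organic anion carriers. Its log2 ratio was 4.57, 5.02, 4.10, 3.87 and 3.94 on control arrays 881, 832, 522, 616 and 391. On hypothyroid arrays 891, 576, 311, 723 and 626 it was 3.68, 4.01, 3.68, 3.57 and 3.50. In all, 4 of 5 hypothyroid arrays lay below every control, and hypothyroid 576 lay within the control range. The difference was -0.61 with an SE of 0.21 (95% interval -1.06 to -0.15), so the control mean was 1.52-fold as high, with an unadjusted p of 0.0134 and an adjusted p of 0.557 by limma. Within slides 100, 136, 139 and 141 the hypothyroid array differed by -0.36, -0.42, -0.88 and -1.01. The difference was -0.72 without control 616, -0.51 without slide 141 and -0.21 with the dyes of that slide as labelled.

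The value for Slc22a29 also depended on which signals were used, although it was -0.61 without background correction. With the scanner software's processed signals the difference was -0.00, since control 616 then stood at 4.61 and the other controls at 6.27 to 6.69, against 5.96 to 6.42 in hypothyroid pups. The reference signal of this probe was 300.2 on control 616 and from 47.1 to 135.7 elsewhere. With processed signals and without control 616 the difference was -0.38, with an adjusted p of 0.565 by limma. The processed liver signal itself ran from 6296 to 11500 in controls and from 3780 to 6029 in hypothyroid pups. These signals were not normalized between arrays. For Slc22a18 they were 11336 on control 616 and from 45100 to 68638 on the other controls. The Slc22a29 ranges therefore do not compare the groups, and no share over all probes was computed. These liver signals and the setting with processed signals and without control 616 were chosen after the values were seen.

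**Figure D5:**
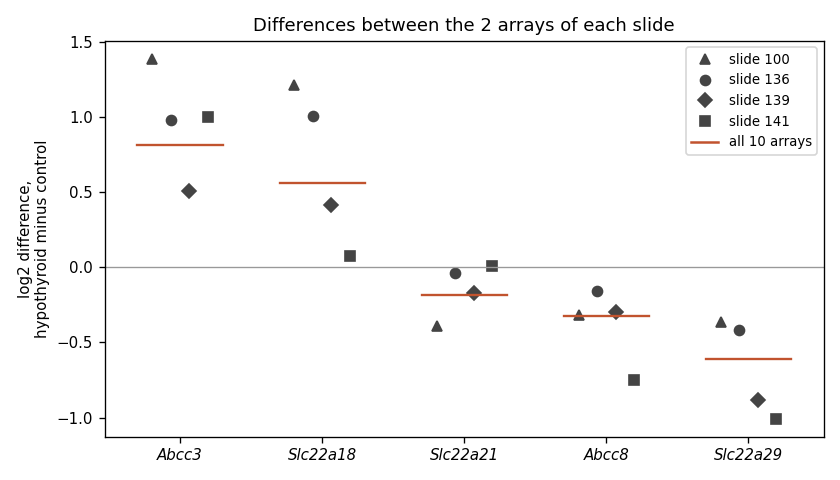
Difference in log2 ratio between the hypothyroid and the control array of the same slide, for the 5 transporter genes with an unadjusted p below 0.05, with the difference over all 10 arrays as a line. The differences of Abcc3 lie between 0.51 and 1.39 and those of Slc22a29 between -1.01 and -0.36. Those of Slc22a18 lie between 0.08 and 1.21 and those of Abcc8 between -0.75 and -0.16. Each of these genes has 1 sign on all 4 slides, while Slc22a21 is at 0.01 on slide 141.

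The values of its relatives overlapped between the groups. Slc22a30 was at 3.30, 3.32, 2.81, 2.43 and 3.05 in controls and 3.04, 3.02, 3.13, 3.09 and 2.79 in hypothyroid pups, with a difference of 0.03 (95% interval -0.31 to 0.38). The differences of Slc22a28, Slc22a26 and Slc22a19 were 0.25 (SE 0.13), 0.28 (SE 0.20) and 0.03 (SE 0.10). Without slide 141 they were 0.36, 0.44 and 0.05, with an unadjusted p of 0.02 by limma for Slc22a28. Without slide 141 and control 616 they were 0.30, 0.55 and 0.10, with an unadjusted p by limma of 0.0371 for Slc22a28 and 0.0178 for Slc22a26. Slc22a28 was dim, with its reference signal well above background on 0 arrays and its liver signal on 3 control arrays. That Slc22a29 differed from its relatives was not tested. The genes are close in sequence and the probes were not checked for hybridization to more than 1 of them, so the split of signal between them is uncertain.

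The 250 bases before the annotated starts of Slc22a28, Slc22a29 and Slc22a30 are shown here to make the closeness of these neighbours visible. They are from RefSeq, build GRCm38.p6, all on the minus strand, at chr19:8131983-8132232, chr19:8218901-8219150 and chr19:8405106-8405355. Capitals mark the longest run of bases that all 3 windows share, 16 bases, which ends 62, 44 and 68 bases before the start.
Slc22a28: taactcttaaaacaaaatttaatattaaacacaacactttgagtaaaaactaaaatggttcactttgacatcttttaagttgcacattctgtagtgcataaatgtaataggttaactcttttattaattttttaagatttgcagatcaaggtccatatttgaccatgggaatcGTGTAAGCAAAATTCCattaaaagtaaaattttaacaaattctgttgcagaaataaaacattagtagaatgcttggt
Slc22a29: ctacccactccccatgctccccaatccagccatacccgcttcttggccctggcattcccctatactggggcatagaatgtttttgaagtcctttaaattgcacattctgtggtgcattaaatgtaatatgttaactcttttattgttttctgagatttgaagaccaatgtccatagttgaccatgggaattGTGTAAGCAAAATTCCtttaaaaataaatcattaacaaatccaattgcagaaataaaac
Slc22a30: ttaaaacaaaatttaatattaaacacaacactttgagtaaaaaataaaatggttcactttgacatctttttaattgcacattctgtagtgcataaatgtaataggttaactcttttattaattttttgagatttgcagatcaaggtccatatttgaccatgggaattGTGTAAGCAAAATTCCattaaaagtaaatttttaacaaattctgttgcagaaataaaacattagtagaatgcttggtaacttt
In local alignments, 97.5% of 244 aligned bases were identical between Slc22a28 and Slc22a30. Between Slc22a29 and these 2 genes it was 87.0% of 177 and 88.8% of 178 aligned bases, and the distal part of the Slc22a29 window did not align. The AGGTCA half-site that thyroid hormone receptors and related receptors bind, searched on both strands, was in none of the 3 windows. Of the 48 windows of 41 transporter genes it was in 8, those of Abcc2, Abcc10, Slc22a14, Slc22a27, Slco1a1, Slco1b2 and Slco4a1, against 14.0% of all 32851 windows of this length. Only 27 of the 35 tested genes had a window. Abcc3 had none, so its upstream bases were not searched. A match of letters is not a binding site, and no match says nothing about the receptor.

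The organic anion transporting polypeptides included no probe with an unadjusted p below 0.05 among the 8 tested. Slco1a4 (Oatp1a4), a carrier of bile acids, thyroid hormones and cardiac glycosides, was at 3.91, 3.61, 4.29, 3.31 and 3.43 in controls and 3.64, 4.36, 4.26, 3.68 and 4.02 in hypothyroid pups. The groups overlapped widely, and the difference was 0.28 with an SE of 0.20, and -0.02 with the dyes of slide 141 as labelled. Slco2b1 (Oatp2b1), a carrier of steroid sulfates, was at 3.96, 4.28, 3.89, 2.96 and 3.75 in controls and 4.15, 4.29, 3.84, 3.38 and 3.68 in hypothyroid pups. Its difference was 0.10 (SE 0.24) with all arrays and -0.10 without control 616.

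Slco2a1, the prostaglandin transporter, differed by -0.07 (SE 0.08), and Slco1c1, known as a thyroxine carrier of brain capillaries, by -0.03 (SE 0.06) at a ratio near 0. Slco3a1 and Slco4a1 were below the reference pool on all arrays, with differences of -0.37 and -0.40 that were -0.15 and -0.14 without control 616. The 2 tested probes of Slco1a5 gave 0.19 and 0.02. Further tested Slc22a genes (Slc22a2, Slc22a6, Slc22a8, Slc22a12, Slc22a13, Slc22a16, Slc22a17, Slc22a20 and Slc22a23) had differences from -0.07 to 0.23, none with an unadjusted p below 0.05, and Slc22a12 had no value on control 616. The highest of these, from a probe of Slc22a23, was 0.07 without control 616.

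Transporters outside these families, listed with them as background, gave a like picture. Of 25 such genes 21 were tested, and 0 had an unadjusted p below 0.05 by limma or by the Fs test. Over all probes the share was 7.42% by limma, and the Fs test gave 2766 of 31634. The difference was positive for 16 and negative for 5, with a median of 0.12, and the mean over the 21 genes differed by 0.17 with all arrays and by 0.04 without control 616. Slc10a1 (Ntcp), the sodium-dependent bile acid uptake carrier, was at 1.95 on control 616, from 4.37 to 4.69 on the other controls and from 4.45 to 4.68 in hypothyroid pups. Abcb11 (Bsep), the canalicular bile salt pump, was at 3.71 on control 616, from 5.16 to 5.63 on the other controls and from 5.26 to 5.73 in hypothyroid pups. Neither separated the groups.

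Of 14 regulators known to control transporter genes, all were tested and 0 had an adjusted p below 0.05 by limma. Of the 14, Keap1 and Stat5b had an unadjusted p below 0.05 by limma, against 7.42% of all probes. By the Fs test 3 of the genes did, against 2766 of 31634 probes in all. Keap1, the cytoplasmic inhibitor of the antioxidant response factor Nfe2l2, was at 0.38, 0.44, 0.32, 0.28 and 0.48 in controls and 0.54, 0.94, 0.98, 0.76 and 0.79 in hypothyroid pups. Each hypothyroid array was above each control, where 2.06% of all probes had groups that did not overlap, and the difference was 0.42 with an SE of 0.09 (unadjusted p 0.000579, adjusted p 0.224 by limma). Stat5b, a mediator of growth hormone signalling, was lower in mean by -0.37 (SE 0.15, unadjusted p 0.0259, adjusted p 0.625 by limma), with 3 of 5 hypothyroid arrays below every control. The receptors Nr1i2, Nr1i3, Nr1h4 and Ppara, which bind drugs, bile acids or fatty acids, had differences of 0.48, 0.34, 0.12 and 0.18, none with an unadjusted p below 0.05. The mean over the 14 regulators differed by 0.15 with all arrays and by 0.04 without control 616.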

How the data were processed

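The authors deposited the scanner output of 2-colour Agilent arrays, read with Agilent Feature Extraction 10.1.1.1, with a median intensity per spot and channel and the software's processed intensity. Intensities were corrected with normexp (offset 50) and normalized within each array by loess (span 0.2, as in the study's methods). Control spots and outlier flags were left out, and spots of 1 probe were averaged. A probe was tested where its liver intensity exceeded a limit on 4 or more of the 5 arrays of either group. The limit was set from the negative control spots (their 5% trimmed mean and 3 trimmed SDs above it). This set was kept in all alternatives but those on the filter, the Fs test and the averages by gene. The Fs test left out probes with a missing value and tested 31634, of which 47 were transporter probes. Averaging by gene left 26211 features. Symbols came from the probes' RefSeq accessions (GRCm38.p6). The groups were compared with limma 3.58.1 in R 4.3.3 and Benjamini-Hochberg adjustment over all probes tested. The study's Fs test was rebuilt as an alternative, with 100 residual shuffles. The programs were tested on simulated data. The number of arrays, and signal over background, limit the precision.

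Values by array are given for a written list of hepatocyte transporters and for every member with an unadjusted p below 0.05 or with groups that did not overlap, each by its brightest tested probe, and some genes that the counts include are not reported here by name. The members and all lists were chosen with earlier results of these data known. Alternatives were the background correction, normalization, filter, slide as a block, dye orientation, arrays left out, the Fs test and probes averaged to genes. TLDA miRNA files and the authors' own table of miRNA comparisons (fold changes and p-values) were not used here.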

Additional observations from a re-analysis of the deposited data

Results flagged for a closer look

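Among 26 sets of 5 arrays (13 genes in 2 groups), 2 held an array whose gap to the nearest other array took up more of the range of its group than Dixon's 95% limit for 5 arrays, or 7.69%, where chance gives about 5%. For Abcc2 in the control arrays this share was 0.719, with control 616 at 2.94 and the nearest array at 3.88. For Abcc6 in the hypothyroid arrays it was 0.771, with hypothyroid 311 at 3.15 and the nearest array at 3.44. The former lies on the array whose correlation with the other slides was the lowest. Why these arrays stood apart was not tested.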

How the results depend on the processing

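For 13 genes and 24 alternatives, the direction was kept in 283 of 312 pairs and turned in 29, and no gene passed an adjusted p of 0.05 in any. The direction of Abcc2, Abcc3, Abcc6, Abcc8, Slc22a18, Slc22a21 and Slc22a29 was kept throughout. Turned values were 0.00824 for Slc22a7 without background correction; 0.00297 for Abcc4, 0.0474 for Slc22a5 and 0.23 for Slc22a7 with processed signals; 0.12, 0.18 and 0.12 for the same 3 genes with median centring; 0.0357 for Slc22a5 and 0.0243 for Slc22a7 with slide as a fixed block; -0.0194 for Slco1a4 with the dyes as labelled; and -0.0375 for Slc22a30 and -0.10 for Slco2b1 without slide 141 and control 616. With processed signals and without control 616, a setting added after the values were seen, they were 0.14 for Abcc4, -0.0255 for Slc22a30, 0.0966 for Slc22a7 and -0.0783 for Slco2b1. Leaving out 1 array at a time gave -0.19 to 0.0232 for Abcc4, -0.10 to 0.12 for Slc22a30, -0.0748 to 0.0418 for Slc22a5, -0.18 to 0.0843 for Slc22a7 and -0.10 to 0.23 for Slco2b1. The cause was not tested.

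The 2 probes with an adjusted p below 0.05 among all tested became 1 with processed signals or median centring, 0 with slide as a fixed block, 14 with slide as a random block, 0 with the dyes as labelled or without slide 141, 1 without slide 141 and control 616, 0 with processed signals and without control 616, and 1 to 30 with 1 array left out (30 without control 616, 6 without hypothyroid 723). The 5 transporter probes at an unadjusted p below 0.05 became 2 with processed signals, 1 with median centring and 0 with the dyes as labelled. Over all 32056 probes the counts under these 3 settings were 2086, 317 and 107, against 2378 in the main fit. Without slide 141 and control 616 there were 7 transporter probes, or 14.6%, against 7.37% of all probes. With 1 array left out there were 4 to 6. The 1 transporter probe with groups that did not overlap became 2 with processed signals, with or without control 616, and 0 with median centring or the dyes as labelled. It became 3 without slide 141 (6.25%, against 5.46% of all probes) and 4 without slide 141 and control 616 (8.33%, against 7.8% of all probes). With 1 array left out it was 1 to 2 (2 without control 832 or 522 or hypothyroid 576 or 311). The share over all probes was not computed for the settings that gave 2. Median centring moved the median difference of all probes from -0.01 to 0.09 and the probes at an unadjusted p below 0.05 from 1071 higher and 1307 lower to 257 higher and 60 lower.

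For the other transporters and the regulators these settings were added later. The count of 0 other transporters at an unadjusted p below 0.05 became 1 with slide as a fixed block, without slide 141, with processed signals and without control 616 or with probes averaged to genes, 2 without slide 141 and control 616, and 0 to 2 with 1 array left out. The 2 regulators became 0 with median centring or the dyes as labelled, 1 with slide as a fixed block, 3 with the Fs test and 1 to 3 with 1 array left out. No paired analysis was possible by replicate number, because the array groups share none, and arrays of the 4 shared slides were paired through the slide block instead. Signal over background limits what can be seen of the 14 untested probes.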
